A study of Mus musculus with 32 samples.

Results

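The distal part of the D2-derived segment of the Line 4a congenic mouse was examined gene by gene in striatal RNA-seq. The genes were chosen by position as the 35 listed genes of chromosome 11 that run from *Fnip1* to *2610507I01Rik* and *Mrpl55*, and they were 35 of the 23420 genes in the count files. In RefSeq's annotation of GRCm38.p6 (mm10) they span 4.77 Mb, from *Fnip1* at chr11:54438107-54518241 to *Mrpl55* at chr11:59202486-59206138. A gap of 1.87 Mb between *Glra1* and *Fam114a2* is the widest between neighbours of the list. Of the 35 genes, 31 were among the 15589 genes with enough reads to be tested.

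The control group was 8 B6 (C57BL/6J) mice and the other group was 8 B6.D2 congenic mice of Line 4a, which carried the chromosome 11 interval of the D2 inbred strain as a heterozygous segment on a B6 background. The mice were naïve littermates of about 50 days of age, and striatal punches of 3 mm from the left and right hemispheres of each mouse were pooled into 1 library. The age and the punch size are those of the labels, and the study's methods state a wider age range and a smaller punch. Poly(A) RNA was sequenced as 50 bp single-end reads, mice 1 to 4 of each genotype on lanes 5 and 6 and mice 5 to 8 on lanes 7 and 8. Since the whole interval came from D2, the effects of a variant at one of these genes and of variants elsewhere in the interval cannot be told apart. The labels give neither sex nor home cage. The study's methods state that each genotype held females and males, and that its model had home cage as a covariate. Neither could be entered here.

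The count tables held 19032826 to 33748353 gene-assigned reads per B6 mouse (median 30222554) and 24912413 to 32085311 per B6.D2 mouse (median 29352254). A pair of libraries stood apart. In B6 mouse 8 and B6.D2 mouse 1, 11.3% and 10.2% of the records tallied in the count tables lay outside annotated exons. The medians were 15.1% in B6 and 15.2% in B6.D2. In B6.D2 mouse 1, 27.3% of the records were alignments that were not unique. These are shares of tallied records and not of reads. Values without both libraries are given beside the results below that they move. Of 9 markers of striatal projection neurons none was absent from any mouse. None of the 9 passed an unadjusted p under 0.05 in edgeR's test, against 10% of all genes tested. At that threshold 7 of 8 markers of cortical glutamatergic neurons were lower in B6.D2, against 5.14% of all genes. None of the 8 passed an FDR of 20% (lowest 0.331). The summed level of the cortical markers ranged from 404 to 674 CPM in B6 and from 254 to 581 CPM in B6.D2, with none of them at 0.

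In a congenic mouse, a stretch of one inbred strain's chromosome replaces the matching stretch of another strain, so that genes in the stretch carry the donor's alleles while the rest of the genome does not. Variants near a gene that alter its own transcript level are said to act in *cis*, and a congenic segment is a setting in which such effects can be seen side by side. The distal genes of this segment share their position and not a pathway. They include a regulator of NF-κB signalling, lysosomal and amino acid transport proteins, redox and copper proteins, mitochondrial ribosomal proteins, RNA-binding proteins and RING or tripartite-motif ubiquitin ligases.

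Promoter windows of GRCm38.p6, the B6 reference, were at hand for 27 of the 35 genes. None was at hand for *Hint1*, *Anxa6*, *Ccdc69*, *Slc36a2*, *Glra1*, *Fam114a2*, *Trim17* and *Trim11*, which RefSeq does annotate. The sequences of D2 were not analysed here. Those below are shown because they lie before the genes whose levels differed most clearly, and each ends at the base before the annotated gene. Capitals mark the NF-κB (kappa-B) consensus, CACGTG or GGGCGG, each searched on both strands so that GGGCGG also appears as CCGCCC. The first is the minus strand of chr11:54962957-54963190, before *Tnip1*. The second is the plus strand of chr11:55204090-55204321, before *Slc36a1*. The third is the minus strand of chr11:59202432-59202485, the 54 bases between *2610507I01Rik* and *Mrpl55*.
Tnip1: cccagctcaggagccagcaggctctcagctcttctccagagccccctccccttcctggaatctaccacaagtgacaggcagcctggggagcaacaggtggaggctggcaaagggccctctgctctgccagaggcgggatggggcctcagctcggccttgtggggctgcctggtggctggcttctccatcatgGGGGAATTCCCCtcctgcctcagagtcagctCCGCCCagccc
Slc36a1: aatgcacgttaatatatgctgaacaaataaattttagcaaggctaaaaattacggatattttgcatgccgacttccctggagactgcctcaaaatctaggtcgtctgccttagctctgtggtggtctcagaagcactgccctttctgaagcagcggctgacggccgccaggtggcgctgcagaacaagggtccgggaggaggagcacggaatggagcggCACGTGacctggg
2610507I01Rik to Mrpl55: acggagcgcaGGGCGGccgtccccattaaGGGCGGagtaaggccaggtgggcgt
In the *Tnip1* sequence 3 overlapping matches to the kappa-B consensus fall in 1 block, which holds no other motif. In windows of 250 bases before the start, the kappa-B consensus was found in 2 of the 35 windows that the 27 genes have (*Tnip1* and *Larp1*), or 5.71%, and in 7.25% of the 32851 windows of all genes. CACGTG was also found in 2 of the 35 (*Slc36a1* and *Fnip1*), against 6.02% of all windows. GGGCGG was found in 23 of the 35 windows, or 65.7%, and in 32.7% of all windows. Some genes have more than 1 window. These are matches of letters in the B6 reference, and whether a factor binds there was not measured.

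Of the 31 genes tested with edgeR's quasi-likelihood test, 1 passed an FDR of 5% (0.00641% of all genes tested passed) and 2 passed an FDR of 20% (0.0192% of all genes). These were *Tnip1*, which was higher in B6.D2, and *2610507I01Rik*, which was lower. At an unadjusted p under 0.05 there were 6 of the 31, or 19.4%, against 10% of all genes. Of these, 2 were higher in B6.D2 (*Tnip1* and *Sparc*, with 4.86% of all genes higher) and 4 were lower (*Slc36a1*, *Fam114a2*, *Mfap3* and *2610507I01Rik*, with 5.14% of all genes lower). The median log2 fold change over the 31 genes was 0.0049 against 0.012 over all genes, with 16 of the 31 higher on average in B6.D2. The median size of the log2 fold change, without its sign, was 0.099 over the 31 genes and 0.073 over all genes.

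**Figure D1:**
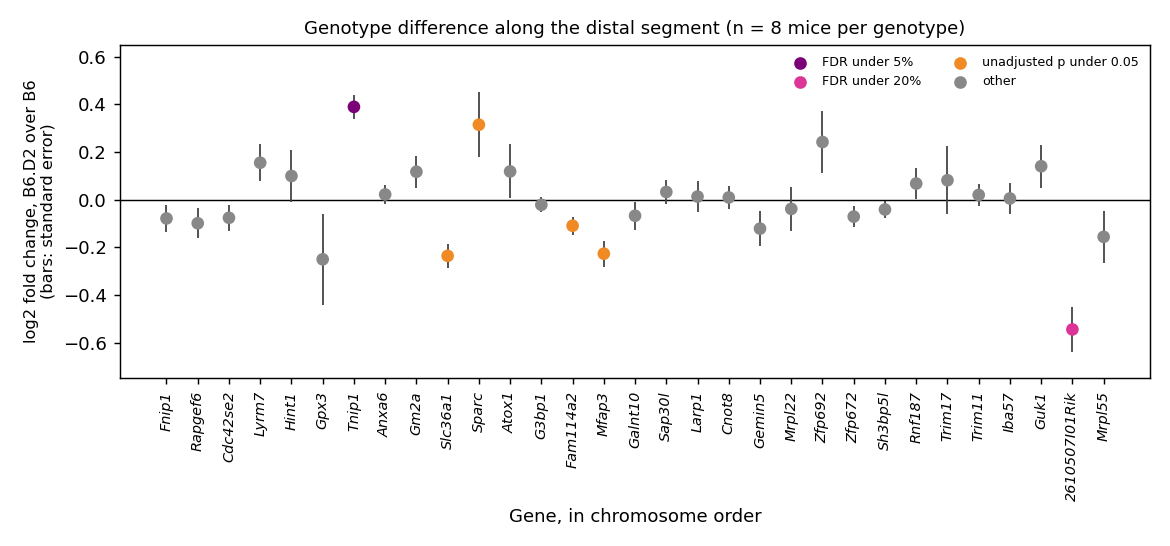
The log2 fold change of B6.D2 over B6 with its standard error for the 31 tested genes, in their order along the chromosome, with colours for the thresholds passed. *Tnip1* at 0.39 and *2610507I01Rik* at -0.54 stand farthest from 0, and their neighbours *Gpx3* (-0.25), *Anxa6* (0.02), *Guk1* (0.14) and *Mrpl55* (-0.16) did not pass the thresholds.

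*Tnip1* codes for a protein that binds the ubiquitin-editing enzyme A20 and restrains NF-κB signalling. Its level ran from 23.0 to 28.1 CPM in B6, with a median of 25.5, and from 30.6 to 36.5 CPM in B6.D2, with a median of 33.0. Every B6.D2 mouse was above every B6 mouse. It was the only one of the 31 genes whose genotypes did not overlap, against 0.0577% of all genes tested. The means were 25.4 ± 1.82 CPM in B6 and 33.3 ± 1.78 CPM in B6.D2 (SD, n = 8 each), a 1.31-fold higher level (log2 fold change 0.39, SE 0.05, FDR 0.00637). An exact two-sided permutation test of the 16 mice gave p = 1.55e-04, the smallest it can give. The log2 fold change was 0.39 within the mice of lanes 5 and 6 (SE 0.08, FDR 0.862). It was 0.39 within those of lanes 7 and 8 (SE 0.07, FDR 0.499). Leaving out any 1 mouse of the 16 kept the log2 fold change between 0.37 and 0.41 with an FDR of at most 0.0268. With the cortical marker score of each mouse as a covariate it was 0.37, with an FDR of 0.634.

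The gene downstream of *Tnip1* on the chromosome, *Gpx3*, which codes for a secreted glutathione peroxidase, ends 399 bp from the end of *Tnip1*, on the opposite strand. It ranged from 4.17 to 12.6 CPM in B6 and from 3.98 to 8.25 CPM in B6.D2, with a log2 fold change of -0.25 (SE 0.19, FDR 0.658). On the other side *Anxa6*, a calcium-dependent phospholipid-binding protein, was at 109 ± 5.58 CPM in B6 and 111 ± 5.49 CPM in B6.D2 (SD, n = 8 each), and its log2 fold change of 0.02 had a standard error of 0.04. The difference at *Tnip1* was larger than the spread between mice, whereas those at its neighbours passed no threshold.

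*2610507I01Rik* is a long non-coding RNA in RefSeq, at chr11:59197793-59202431 on the minus strand. Its level ran from 20.5 to 26.9 CPM in B6, with a median of 24.5, and from 14.2 to 24.3 CPM in B6.D2, with a median of 15.9. Of the 8 B6.D2 mice, 7 lay between 14.2 and 16.5 CPM, below every B6 mouse, and mouse 6 lay at 24.3 CPM, within the B6 range. The means were 24.2 ± 2.03 CPM in B6 and 16.6 ± 3.25 CPM in B6.D2 (SD, n = 8 each), a 1.46-fold lower level in B6.D2 (log2 fold change -0.54, SE 0.09, FDR 0.0875, exact two-sided permutation p = 6.22e-04). The log2 fold change was -0.70 within lanes 5 and 6 and -0.40 within lanes 7 and 8, where mouse 6 was sequenced. Without B6.D2 mouse 6 it was -0.65 with an FDR of 1.03e-04. The FDR rose above 20%, to between 0.203 and 0.286, when B6 mouse 1, 2, 5 or 6 or B6.D2 mouse 3, 4, 5, 7 or 8 was left out, with log2 fold changes between -0.54 and -0.52. With the cortical marker score as a covariate the log2 fold change was -0.52, with an FDR of 0.899.

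*Mrpl55* codes for a protein of the large mitochondrial ribosomal subunit and starts 54 bp from *2610507I01Rik*, in the opposite direction. It ranged from 15.2 to 18.9 CPM in B6. In B6.D2, 6 mice lay between 12.8 and 14.2 CPM, below every B6 mouse. The other B6.D2 mice were mouse 6 at 17.0 CPM and mouse 1 at 23.3 CPM. B6.D2 mouse 6 was thus within the B6 range for both genes of the pair. Over all mice the log2 fold change of *Mrpl55* was -0.16 (SE 0.11, FDR 0.624), and without B6 mouse 8 and B6.D2 mouse 1 it was -0.25, with an FDR of 0.225.

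**Figure D2:**
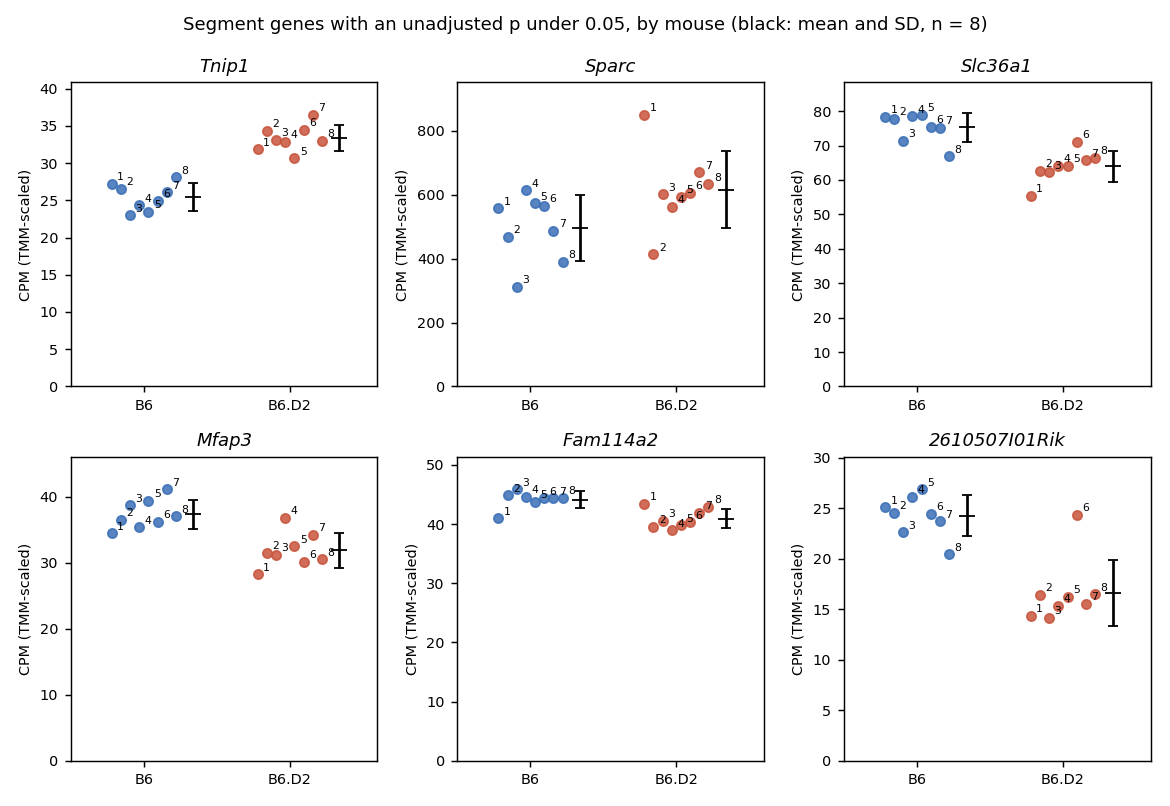
CPM of the 6 genes with an unadjusted p under 0.05, each point 1 mouse with its number, and the mean and SD of each genotype in black. For *Tnip1* the 8 B6.D2 mice lie between 30.6 and 36.5 CPM, all above the B6 mice, while for *2610507I01Rik* only B6.D2 mouse 6, at 24.3 CPM, lies among the B6 mice.

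Genes of transport and the lysosome numbered 4, of which 2 could be tested. *Slc36a1* codes for a proton-coupled amino acid transporter of the lysosome and plasma membrane. It ran from 66.9 to 78.9 CPM in B6, with a median of 76.7, and from 55.4 to 71.2 CPM in B6.D2, with a median of 64.1. All 8 B6.D2 mice were below the B6 median and 7 were below every B6 mouse, with mouse 6 again within the B6 range. The means were 75.3 ± 4.22 and 64.0 ± 4.45 CPM (SD, n = 8 each), for a log2 fold change of -0.24 (SE 0.05, FDR 0.292). The lowest mouse of each genotype was one of the libraries that stood apart, B6 mouse 8 and B6.D2 mouse 1. Without both, the log2 fold change was -0.23 and the FDR was 0.0077. The FDR also fell under 20%, to between 0.0977 and 0.184, without B6 mouse 4, 7 or 8 or B6.D2 mouse 1, 2 or 6. Without any 1 of the other 10 mice it rose to between 0.344 and 0.664.

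*Gm2a*, the activator protein for the breakdown of GM2 ganglioside, ranged from 71.0 to 81.5 CPM in B6. In B6.D2, 7 mice lay at or below 82.1 CPM and mouse 1 lay at 110 CPM, and the log2 fold change was 0.12 (SE 0.07, FDR 0.563), or 0.04 without B6 mouse 8 and B6.D2 mouse 1. *Slc36a2*, a relative of *Slc36a1*, had 2 to 13 reads per mouse in B6 and 2 to 7 in B6.D2. *Glra1*, the alpha 1 subunit of the glycine receptor, had 6 to 21 reads in B6 and 0 to 18 in B6.D2. *Slc36a2* and *Glra1* had too few reads to be tested.

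Of the secreted and adhesion genes, *Sparc*, a secreted matricellular protein of glia and vessels, was among the highest in level. It ran from 312 to 615 CPM in B6, with a median of 522, and from 413 to 850 CPM in B6.D2, with a median of 604. The genotypes overlapped widely, with 3 B6.D2 mice above every B6 mouse and 1 of these the library of mouse 1. The means were 496 ± 103 and 617 ± 121 CPM (SD, n = 8 each), for a log2 fold change of 0.31 (SE 0.14, FDR 0.466). It was 0.07 with the cortical marker score as a covariate and 0.19 without B6 mouse 8 and B6.D2 mouse 1. Without B6 mouse 2, 3 or 8 or B6.D2 mouse 1 or 7 it was between 0.23 and 0.30 and the unadjusted threshold was not passed in edgeR's test. In tissue punches, fewer cells of a type and less RNA per cell cannot be told apart. The summed level of 7 vascular markers ran from 268 to 400.3 CPM in B6 and from 295 to 401 CPM in B6.D2, and that of 6 astrocyte markers from 5182 to 5985 CPM and from 4164 to 5887 CPM. None of these markers was at 0, and their part in the result was not tested.

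*Mfap3*, a microfibril-associated protein, starts within the first bases of *Fam114a2*, on the opposite strand, and the spans overlap by 5 bp. *Mfap3* ran from 34.5 to 41.2 CPM in B6, with a median of 36.8, and from 28.3 to 36.8 CPM in B6.D2, with a median of 31.4. Of the B6.D2 mice, 7 were below every B6 mouse and mouse 4, at 36.8 CPM, was not. The means were 37.4 ± 2.23 and 31.9 ± 2.64 CPM (SD, n = 8 each), for a log2 fold change of -0.23 (SE 0.05, FDR 0.331). It was -0.18 within lanes 5 and 6 and -0.27 within lanes 7 and 8, and the FDR was 0.183 without B6 mouse 4, 0.186 without B6.D2 mouse 2 and between 0.204 and 0.664 without any 1 of the other 14 mice.

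*Fam114a2* ran from 41.0 to 45.9 CPM in B6 and from 38.9 to 43.4 CPM in B6.D2. All 8 B6.D2 mice were below the B6 median of 44.4 CPM, and 5 were below every B6 mouse. The means were 44.1 ± 1.41 and 40.9 ± 1.63 CPM (SD, n = 8 each), for a log2 fold change of -0.11 (SE 0.04, FDR 0.397). Its coefficient of variation over the B6 mice was 3.20%, against a median of 7.18% over the 31 genes. Of the rest of these groups, *Galnt10*, which starts O-linked glycosylation, had a log2 fold change of -0.07 (SE 0.06). The giant cadherin *Fat2* had at most 3 reads in any mouse, and the coiled-coil gene *Ccdc69* had 4 to 14.

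No further member of the list passed the unadjusted threshold. Among the signalling genes, *Fnip1*, *Rapgef6*, *Cdc42se2*, *Anxa6* and *Sh3bp5l* had log2 fold changes between -0.10 and 0.02. *Rapgef6*, an exchange factor for Rap GTPases, had the largest of these, -0.10 (SE 0.06, FDR 0.603), and 3 of 8 B6.D2 mice lay below every B6 mouse. *Cdc42se2*, an effector of the GTPase Cdc42, was highest in level at 43.7 RPKM, and *Rapgef6* lowest at 5.47 RPKM. Among the redox and nucleotide genes, *Hint1*, a nucleotide-binding histidine triad protein, was highest at 91.3 RPKM and *Gpx3* lowest at 4.03 RPKM in B6. *Hint1*, the copper chaperone *Atox1* and the guanylate kinase *Guk1* had log2 fold changes of 0.10, 0.12 and 0.14.

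B6.D2 mouse 1 was the highest mouse of its genotype for *Hint1*, *Atox1* and *Guk1*. *Atox1* lay between 25.8 and 27.7 CPM in B6, at 48.4 CPM in B6.D2 mouse 1 and at or below 28.6 CPM in the other 7 B6.D2 mice. *Guk1* lay at 117 CPM in B6.D2 mouse 1 and between 71.9 and 76.8 CPM in the other 7. Without B6 mouse 8 and B6.D2 mouse 1 the log2 fold changes were -0.0067 for *Hint1*, -0.03 for *Atox1* and 0.07 for *Guk1*. *Guk1* was nevertheless above the B6 median in all 8 B6.D2 mice. Such a one-sided position was seen for 6 of the 31 genes, against 8.62% of all genes tested. The 6 were *Tnip1*, *Zfp692* and *Guk1* above and *Slc36a1*, *Fam114a2* and *2610507I01Rik* below.

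Among the mitochondrial genes besides *Mrpl55*, *Lyrm7*, an assembly factor of respiratory complex III, had a log2 fold change of 0.15 (SE 0.08, FDR 0.517). It ran from 10.2 to 13.4 CPM in B6 and from 11.8 to 16.7 CPM in B6.D2. *Mrpl22*, of the large mitochondrial ribosomal subunit, had -0.04 (SE 0.09), or -0.10 without B6 mouse 8 and B6.D2 mouse 1. B6.D2 mouse 1 lay at 13.8 CPM and the other B6.D2 mice at or below 9.96 CPM. *Iba57*, of iron-sulfur cluster assembly, had 0.0049 (SE 0.06). *Iba57* was the lowest of the group at 2.03 RPKM and *Mrpl55* the highest at 16.4 RPKM.

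None of the 4 RNA-binding genes passed a threshold. *G3bp1*, the nucleator of stress granules, lay between 58.7 and 63.0 CPM in B6 and between 57.3 and 61.2 CPM in B6.D2, with a log2 fold change of -0.02 and a 95% confidence interval from -0.09 to 0.04. *Larp1*, which binds mRNAs with a terminal oligopyrimidine tract, was highest in level at 20.8 RPKM, with a log2 fold change of 0.01 (SE 0.06), and *Cnot8*, a deadenylase of the CCR4-NOT complex, had 0.0091 (SE 0.05). *Gemin5*, which delivers small nuclear RNAs to the SMN complex, was lowest at 4.14 RPKM and had the largest log2 fold change of the group, -0.12 (SE 0.07, FDR 0.589). It lay at 17.6 CPM in B6.D2 mouse 1 and at or above 24.6 CPM in the other 7, and the log2 fold change was -0.08 without B6 mouse 8 and B6.D2 mouse 1.

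Of the nuclear genes, *Zfp692*, a zinc finger protein, was at or above 34.4 CPM in 7 B6 mice and at 16.5 CPM in B6 mouse 8. In B6.D2 it lay between 39.7 and 45.2 CPM. The log2 fold change was 0.24 over all mice (SE 0.13, FDR 0.548) and 0.12 without B6 mouse 8 and B6.D2 mouse 1 (FDR 0.365). *Zfp672*, whose span overlaps the end of *Zfp692* by 32 bp on the opposite strand, had -0.07 (SE 0.04), and *Sap30l*, a partner of the Sin3 corepressor, had 0.03 (SE 0.05). *Zfp692* was the highest of these at 17.1 RPKM and *Zfp672* the lowest at 11.1 RPKM. In the mm9 annotation used for exon lengths, the exons of *Zfp692* and *Zfp672* do not overlap. If they did in the annotation used for counting, reads on the shared bases were counted for neither.

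The ubiquitin ligase genes *Rnf187*, *Trim17* and *Trim11* had log2 fold changes of 0.07, 0.08 and 0.02, with standard errors of 0.07, 0.14 and 0.05. B6.D2 mouse 1 was the highest of its genotype for *Rnf187*, at 402 CPM, and the lowest for *Trim17*, at 4.17 CPM. Leaving out 1 mouse at a time gave 0.0080 to 0.10 for *Rnf187* and 0.0070 to 0.18 for *Trim17*, and without B6 mouse 8 and B6.D2 mouse 1 the values were 0.04 and 0.14. *Rnf187* was the most highly expressed gene of the list and *Trim17* the lowest of those tested, at 154 and 1.97 RPKM in B6. Of the annotated exon length of *Trim17*, 19.0% is shared with *Hist3h2a* on the same strand, so that its count is uncertain.

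**Figure D3:**
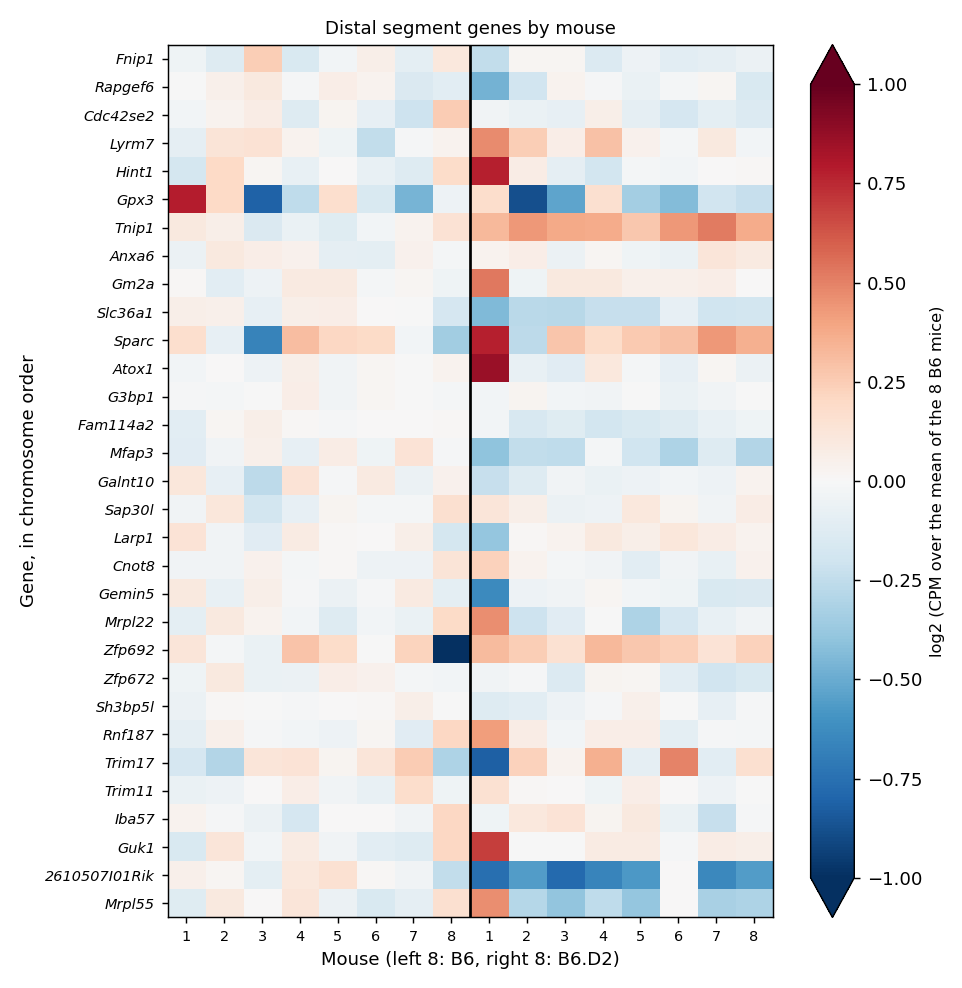
Log2 of the CPM of each mouse over the mean of the 8 B6 mice, for the 31 tested genes in chromosome order. The columns of B6.D2 mouse 1 and, at *Zfp692*, of B6 mouse 8 stand apart, *Tnip1* is above the B6 mean in all 8 B6.D2 mice, and B6.D2 mouse 6 is near the B6 mean for *2610507I01Rik* and *Mrpl55*.

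Across the list, B6.D2 mouse 1 departed most from its genotype. The median size of its log2 deviation from the other B6.D2 mice was 0.212 over the 31 genes, and that of B6 mouse 8 from the other B6 mice was 0.159, whereas the remaining 14 mice lay between 0.043 and 0.0906. In B6.D2 mouse 1 short transcripts tended to be high and long ones low, with a Spearman correlation of deviation and exon length of -0.758 over the 31 genes and of -0.56 over the 14629 tested genes with an annotated length. Over the 31 genes the correlation ran from -0.523 to 0.672 in the 14 mice other than B6 mouse 8 and B6.D2 mouse 1. The genes share 1 library and are not replicates. Without B6 mouse 8 and B6.D2 mouse 1 the log2 fold changes of other genes were -0.04 for *Fnip1*, *Cdc42se2* and *Galnt10*, 0.10 for *Lyrm7*, 0.04 for *Larp1* and *Iba57*, 0.01 for *Anxa6*, -0.01 for *Cnot8* and -0.0080 for *Trim11*. Without B6 mouse 8 and B6.D2 mouse 1, 3 of the 31 genes passed an FDR of 5% (*Tnip1*, *2610507I01Rik* and *Slc36a1*), against 0.0449% of the genes then tested. At an unadjusted p under 0.05 there were then 7, against 12.8% of all genes. These held 5 of the 6 genes found over all mice, without *Sparc*, and added *Zfp692* and *Mrpl55*.

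The B6.D2 mice did not differ from B6 to the same extent at each of the 6 genes past the unadjusted threshold. Mouse 6 lay within the B6 range for 3 of them (*Slc36a1*, *Sparc* and *2610507I01Rik*), mouse 4 for 2 and each of the other 6 mice for 1.

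**Figure D4:**
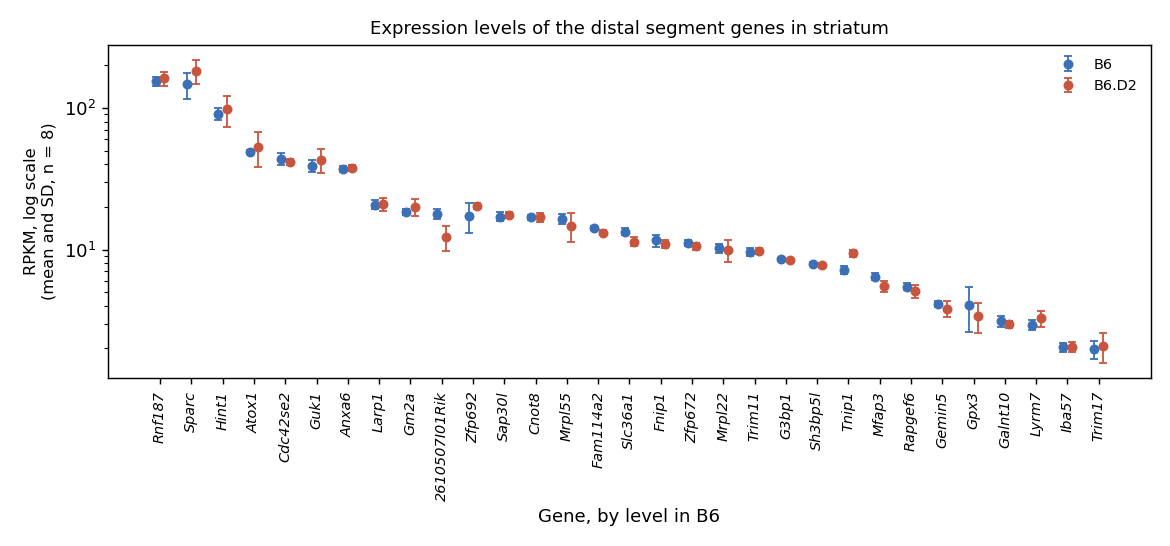
Mean RPKM and SD of the 31 tested genes in B6 and B6.D2 (n = 8 each) on a log scale, ordered by the level in B6. Levels run from 1.97 RPKM (*Trim17*) to 154 RPKM (*Rnf187*), and the SD bars of the genotypes stand clear of each other at *Tnip1* (7.19 and 9.42 RPKM), *2610507I01Rik* (17.8 and 12.2 RPKM), *Slc36a1* (13.4 and 11.4 RPKM), *Mfap3* (6.44 and 5.50 RPKM) and *Fam114a2* (14.2 and 13.2 RPKM).

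Per length of transcript, the levels of the 31 genes in B6 had a median of 13.4 RPKM against 6.29 RPKM over all tested genes with a length. *Rnf187*, *Sparc* (147 RPKM) and *Hint1* were highest, followed by *Atox1* (49.2 RPKM), *Cdc42se2* and *Guk1* (39.0 RPKM). *Tnip1*, at 7.19 RPKM, was number 23 of the 31, and *2610507I01Rik*, at 17.8 RPKM, number 10. Of the 30 neighbouring pairs in this order, 22 had overlapping ranges over the B6 mice, among them *Rnf187* and *Sparc*, and 8 did not.

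The list was set beside other genes of the same chromosome. In the proximal part of the segment, with genes taken by their start position up to *Fnip1*, 7 of 47 tested genes (14.9%) had an unadjusted p under 0.05. Among 14 tested genes that lie between *Fnip1* and *2610507I01Rik* but are not on the list, 5 (35.7%) passed the unadjusted threshold. On chromosome 11 outside the segment it was 117 of 1063 genes (11%), and on other chromosomes 1335 of 13430 (9.94%). The differences between these shares were not tested.

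Genes that work with members of the list but lie elsewhere were also read, from lists written with earlier results known. None passed an FDR of 20%, against 0.0192% of all genes tested. The unadjusted p under 0.05 used for the counts below was passed by 10% of all genes. Of 26 tested genes of the NF-κB and A20 pathway around *Tnip1* none passed an unadjusted p under 0.05, with the smallest p at *Relb* (log2 fold change 0.18, FDR 0.537) and *Ikbkg* (-0.10, FDR 0.537), and their median log2 fold change was -0.0030. Of 27 genes of mTORC1 and lysosomal amino acid sensing, around *Slc36a1* and *Fnip1*, 1 passed, *Nprl3* (0.11, FDR 0.490), with *Tfe3* next (0.06, FDR 0.612). Of 45 mitochondrial ribosomal protein genes none passed, with the smallest p at *Mrpl24* (0.10, FDR 0.561) and *Mrpl42* (0.15, FDR 0.608). Of 13 stress granule genes, *G3bp2* was lower (-0.10, FDR 0.477) and *Caprin1* was next (-0.07, FDR 0.565).

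Of 14 genes of the CCR4-NOT complex and its *Btg* and *Tob* partners none passed. The smallest p was at *Btg2* (log2 fold change -0.26, FDR 0.590) and *Cnot10* (0.08, FDR 0.603). Of 8 genes of the SMN complex none passed, with *Strap* (-0.06, FDR 0.757) and *Ddx20* (-0.03, FDR 0.869) first. Of 9 tested genes of copper handling none passed, with *Slc31a2* (0.16, FDR 0.531) and *Ccs* (0.10, FDR 0.650) first. Of 5 tested genes of glycine signalling, the glycine transporter *Slc6a9* was higher (0.25, FDR 0.476) and the receptor subunit *Glra2* lower (-0.17, FDR 0.490) at the unadjusted threshold. Markers of oligodendrocytes (7), astrocytes (6), microglia (7), vessels (7) and choroid plexus (5) held no gene past that threshold, which 10% of all genes passed.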

How the data were processed

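Striatal RNA of 16 mice was sequenced with a stranded kit by the authors. The authors aligned the reads with TopHat and bowtie2 2.2.2 to mm10, a B6 genome, also for D2 alleles, and deposited counts of reads per gene for each mouse and lane from HTSeq 0.6.1p1, in union mode and without strand, so that antisense reads and reads with several alignments affect or leave the counts. Reads of D2 alleles may align less often to a B6 genome, which would lower counts of segment genes in B6.D2 only. Whether they did was not tested. Deposited results of the authors' own test (fold changes and p-values) were not used. Here counts were added over the lane files of a mouse, since a chi-square comparison per degree of freedom gave 0.997 to 1.05 between lane files and 3.98 or more between mice. For B6 mouse 7, 1 lane file was analysed.

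Genes were filtered with filterByExpr, scaled by TMM and tested with edgeR 4.0.16 (R 4.3.3) for genotype, with Benjamini-Hochberg adjustment over all 15589 genes and thresholds of 5% and 20%. CPM are TMM-scaled, and RPKM used GENCODE exon lengths of mm9. Single genes were compared by exact permutation (numpy 2.4.6). Over all genes together the spread between mice exceeded counting error. For single genes the spread and the counting error were not compared. On simulated data with 50 genes changed at each size, 96% of genes at a log2 fold change of 1.00 and 36% at 0.30 were called. The simulated data held many more changed genes than were called here, and no libraries that stood apart. These shares therefore do not give the power of the comparison of the real mice.

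Members and lists were chosen with earlier results of these data known. Genes past an FDR of 20% are given in full, those with an unadjusted p under 0.05 with ranges and errors, and the others by the highest level, lowest level and largest change of their role group, and each pathway list by the pair of genes with the smallest p. *Gm2a*, *Gpx3*, *Mrpl55* and others given by mouse were added after their values were seen. Same-numbered mice were checked for pairing and not treated as paired. Alternatives were other normalizations, filters and tools, lane pair, replicate block and cortical score as terms, each lane pair alone, the second lane alone, and mice left out. A withheld item is not reported here and remains in counts over all genes.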

Additional observations from a re-analysis of the deposited data

Results flagged for a closer look

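In 13 of 62 groups of 8 mice (each of the 31 tested genes in each genotype), the highest or lowest mouse lay farther from the nearest of the others than Dixon's 95% critical value allows, where chance gives about 1 in 20. In 10 of the 13 it was B6.D2 mouse 1, the library with the largest share of alignments that were not unique. It was the highest of its genotype for *Hint1* (137 CPM, next 83.8), *Gm2a* (110 CPM, next 82.1), *Atox1* (48.4 CPM, next 28.6), *Cnot8* (52.2 CPM, next 45.7), *Mrpl22* (13.8 CPM, next 9.96), *Rnf187* (402 CPM, next 318), *Guk1* (117 CPM, next 76.8) and *Mrpl55* (23.3 CPM, next 17.0). It was the lowest for *Larp1* (109 CPM, next 143) and *Gemin5* (17.6 CPM, next 24.6).

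B6 mouse 8, the other library that stood apart, was the lowest of its genotype for *Zfp692* at 16.5 CPM, with the next at 34.4 CPM. B6 mouse 1 was the lowest for *Fam114a2* at 41.0 CPM, with the next at 43.7 CPM. B6.D2 mouse 6 was the highest for *2610507I01Rik* at 24.3 CPM, with the next at 16.5 CPM.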

How the results depend on the processing

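The tested contrast was genotype over 16 mice. RLE or upper-quartile normalization, either other filter, the second lane file alone and the lane pair as a term left the counts of listed genes within 1.5 times of those given above, 1 at an FDR of 5%, 2 at 20% and 6 at an unadjusted p under 0.05. DESeq2 gave 4 and 5 listed genes at 5% and 20% (25 and 264 of all genes), and the likelihood ratio test gave 3 and 4 (20 and 186 of all genes). With the lane pair as a term, 2 of all genes passed 5%. With the cortical score as a term, 0 listed genes and 0 of all genes passed either threshold, and 418 of all genes had an unadjusted p under 0.05, 7 of them listed. In lanes 5 and 6 alone (4 mice per genotype), 0 passed 5%, 1 gene, a listed one, passed 20%, and 3 listed genes and 500 of all genes passed the unadjusted threshold. In lanes 7 and 8 alone, 0 passed either FDR, and 1407 of all genes and 6 listed genes passed the unadjusted threshold. Each lane pair alone holds 4 mice per genotype, and the cortical score differed between genotypes. Why the counts differed between settings was not tested.

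Leaving out B6 mouse 8 and B6.D2 mouse 1, a choice made after seeing the data, gave 7 of all genes at 5% and 14 at 20%, with 3 listed genes at either. Leaving out each mouse in turn gave 1 to 4 of all genes at 5% (4 without B6.D2 mouse 1, 3 without B6.D2 mouse 6) and 1 to 114 at 20%, 1107 to 2087 at the unadjusted threshold, and 1 to 2, 1 to 4 and 5 to 7 listed genes. The 20% count was 84 without B6 mouse 4, 90 without B6 mouse 7 and 114 without B6.D2 mouse 2. The genes whose genotypes did not overlap numbered 9, of them 1 listed, under each of the normalizations and the second lane alone.

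Same-numbered mice deviated together in 3 of 8 pairs (r over 0.1, range -0.115 to 0.364), and 2 of 8 correlated best with their own number. They also share a lane pair. The labels give neither home cage nor litter, so whether they share these was not tested. With the replicate number as a block, 0 genes passed 5% and 1 listed gene of 3 in all passed 20%: the FDR was 0.145 for *Tnip1* and 0.211 for *2610507I01Rik*, with log2 fold changes of 0.39 and -0.56.

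Directions turned for listed genes with small differences. These were, in lanes 5 and 6, *Anxa6* (-0.02), *Larp1* (-0.07) and *Mrpl22* (0.06). In lanes 7 and 8 they were *Atox1* (-0.04), *Cnot8* (-0.06), *Hint1* (-0.01), *Iba57* (-0.10), *Rnf187* (-0.04), *Sap30l* (-0.0028) and *Trim11* (-0.0084). With the cortical score *Cdc42se2* (0.0066) and *Larp1* (-0.05) turned, and with the second lane alone *Cnot8* (-0.03). Without B6 mouse 8 and B6.D2 mouse 1 *Atox1* (-0.03), *Cnot8* (-0.01), *Hint1* (-0.0067) and *Trim11* (-0.0080) turned. Leaving out single mice gave -0.03 to 0.15 for *Atox1*, -0.03 to 0.03 for *Cnot8*, -0.03 to 0.13 for *Hint1*, -0.02 to 0.04 for *Iba57*, -0.01 to 0.06 for *Larp1* and -0.0011 to 0.05 for *Trim11*.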
